A study of Mus musculus with 6 samples.

Results

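The semaphorins, plexins and neuropilins are a family of axon guidance ligands and their receptors, and 31 of the 20173 genes in the deposited table belong to it by name. They were chosen by gene symbol alone, as the semaphorins of vertebrate classes 3 to 7 (20 genes), the plexins A to D (9 genes) and the neuropilins (2 genes). The question asked of them here was how abundant each ligand and receptor was, and whether it differed between neuron cultures with and without a deletion of Slit2, which encodes another secreted guidance cue. No member passed the adjusted test between the genotypes. The Slit2th libraries nevertheless had lower summed plexin levels than the Slit2fl/fl libraries, with groups that did not overlap. They also had higher values of Sema3e and Sema6a in each of their 3 libraries. Groups did not overlap for 18.4% of all tested genes either. The tested plexins had a median GC content (share of G and C bases) of 56.5%. Of all tested genes at 55% GC or more, 72.4% had lower values in Slit2th, and the plexin sum was not corrected for this.

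RNA was sequenced from 6 cultures labelled as neurons of the sympathetic ganglion, 3 per genotype. The neurons came from male mice aged 3 weeks (C57BL/6J background), were isolated from the sympathetic chain and were kept in culture for 4 to 5 days. The isolation protocol also names dorsal root neurons, so the source is not certain. Control mice were Slit2fl/fl (labelled SLIT2f/f), which carry the loxP-flanked Slit2 allele, and whether they also carry Cre is not stated. Slit2th mice (labelled SLIT2-knockout) carry the same allele together with Cre recombinase driven by the promoter of Th, the tyrosine hydroxylase gene of catecholamine-producing cells. The labels do not say whether a library was made from 1 mouse or from pooled mice, so the p-values measure the spread between these libraries, which may be technical.

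Semaphorins are secreted or membrane-bound proteins that share a sema domain and steer growing axons, mostly by repulsion. Class 3 members are secreted, class 4, 5 and 6 members span the membrane, and class 7 is held by a lipid anchor. Plexins are their signaling receptors, and the plexin cytoplasmic part acts on small GTPases and through them on the cytoskeleton. Most class 3 semaphorins reach A-type plexins through neuropilins, which bind the ligand but signal little on their own, while class 4 members bind mainly B-type plexins and class 6 members A-type plexins. Sema3e is an exception, as it binds Plxnd1 directly. In sympathetic ganglia this system is known for patterning axon growth and vessel innervation.

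Total counts ranged from 1533367 to 3155406 in Slit2fl/fl and from 1255939 to 1999485 in Slit2th, so that the floor of detection, taken as 3 counts, was 0.951 CPM (counts relative to the library's total) in the deepest library and 2.39 CPM in the shallowest. Slit2 itself was counted 139, 85 and 77 times in Slit2fl/fl, against 17, 24 and 27 in Slit2th. Its log2 fold change was -1.78 (SE 0.37, edgeR adjusted p = 0.423). Slit2fl/fl replicate 1 stood apart in base composition, with a count-weighted mean gene GC content of 50.02% against 46.3 to 47.0% in the other 5 libraries. Of 16 sympathetic neuron markers in the table, 12 had at most 4 counts in any library, with 0 counts of Th over the 6 libraries. The other 4 were Tubb3 (85 to 906 counts), Uchl1 (57 to 737), Stmn2 (21 to 135) and Slc18a2 (12 to 31), and they carried most of the summed level, which was 168 to 573 CPM in Slit2fl/fl against 185 to 193 CPM in Slit2th. The 12 glial markers together reached 5958 to 12400 CPM in Slit2fl/fl against 14430 to 21030 CPM in Slit2th, and the 12 fibroblast markers 2533 to 3488 and 3456 to 4916 CPM. The 12 macrophage markers summed to 30.6 to 87.9 CPM in Slit2fl/fl and to 110.5 to 628 CPM in Slit2th, highest in Slit2th replicate 1. Not all of them were high there, as Csf1r and Cd163 had 0 counts in that library. The 8 proliferation markers summed to 301 to 404 CPM in Slit2fl/fl against 165 to 297 CPM in Slit2th, without overlap. The part of cell types and of proliferation in the differences given below was not tested. Fewer cells of a type and less RNA per cell cannot be told apart in such bulk libraries.

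Since base composition differed between the libraries, coding sequence is shown here for 3 members that the results below turn on, a pair of GC-rich plexins and the more AT-rich Sema3e. Each is the 90-base window at the middle of the coding exon that holds the midpoint of the coding sequence, read 5′ to 3′ on the gene's own strand from GENCODE M21 transcripts (GRCm38), and the capitals mark G and C. The windows are at chr9:109106482-109106571 on the plus strand (Plxnb1, exon 15 of 38), chr6:89334666-89334755 on the minus strand (Plxna1, exon 14 of 32) and chr5:14232061-14232150 on the plus strand (Sema3e, exon 11 of 17).
Plxnb1: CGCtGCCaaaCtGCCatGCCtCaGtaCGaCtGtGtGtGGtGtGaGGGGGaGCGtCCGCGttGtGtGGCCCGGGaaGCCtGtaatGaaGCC
Plxna1: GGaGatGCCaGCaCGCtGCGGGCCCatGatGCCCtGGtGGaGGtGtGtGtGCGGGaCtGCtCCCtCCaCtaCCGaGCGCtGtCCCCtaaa
Sema3e: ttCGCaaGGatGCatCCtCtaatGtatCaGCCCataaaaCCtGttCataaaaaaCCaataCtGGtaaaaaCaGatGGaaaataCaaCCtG
G and C make up 56 of the 90 bases in the Plxnb1 window and 59 of 90 in the Plxna1 window, against 33 of 90 in the Sema3e window. Over the whole coding sequence the shares were 58.3%, 57.5% and 48.9%.

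Of the 31 genes, 22 reached 1 CPM in every library, and 26 reached it in at least 3 libraries and were tested, namely 16 semaphorins, 8 plexins and both neuropilins. The 5 genes that were not tested were Sema3f, a secreted ligand of Nrp2 (5 counts in all: 3, 1 and 0 in Slit2fl/fl, 1, 0 and 0 in Slit2th), Sema4a (1, 2 and 6 against 0, 0 and 0), Sema5b (1, 0 and 0 against 0, 0 and 0), Sema6b (12, 1 and 0 against 0, 0 and 0) and Plxnc1, the receptor of Sema7a (1, 0 and 0 against 0, 8 and 5). In most libraries these genes were at or under the floor, so that any difference in them rests on very few counts.

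Levels are compared between genes as TMM-normalised CPM per kilobase of exon. By the median over the 6 libraries, Sema3e was highest at 19.3 CPM per kilobase (7.68 to 40.7), followed by the class 3 ligands Sema3c at 13.9 (4.03 to 24.3) and Sema3b at 10.9 (7.72 to 54.7). Nrp2 at 8.52 (7.80 to 11.7) and Plxnb3 at 7.64 (6.59 to 13.9) were the most abundant receptors. Sema4b (7.59), Sema6a (7.15), Sema4f (6.12), Sema6d (5.65), Sema5a (4.90) and Nrp1 (4.63) came next. The other tested plexins were low, from 3.01 for Plxna4 through 1.84 for Plxna1 and 1.53 for Plxnb1 to 0.729 for Plxnb2, 0.555 for Plxna2, 0.551 for Plxnd1 and 0.132 for Plxna3. The order is not firm, since the ranges of every pair of neighbours in it overlapped. The leading gene also changed between libraries: it was Sema4f in Slit2fl/fl replicate 1 (52.8 CPM per kilobase), Sema3c in replicate 2 (14.9) and Sema3e in replicate 3 (18.1), then Sema3b in Slit2th replicate 1 (54.7) and Sema3e in replicates 2 (20.6) and 3 (22.9).

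**Figure D1:**
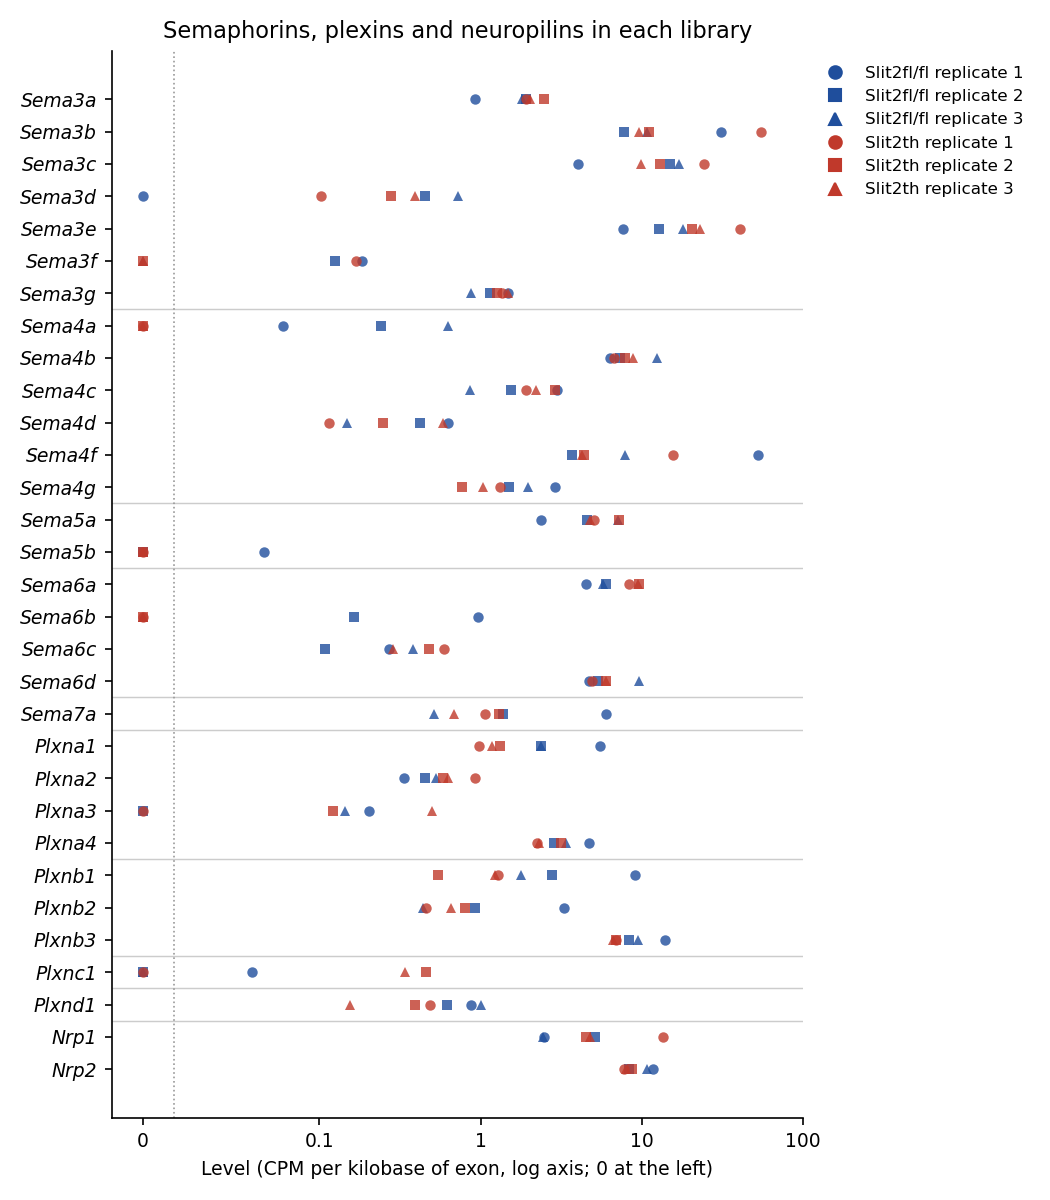
Level of each of the 31 genes in each library, as TMM-normalised CPM per kilobase of exon on a log axis with a separate place for 0, blue for Slit2fl/fl and red for Slit2th. Sema3e, Sema3c and Sema3b lie highest, and the libraries of the 2 genotypes overlap for most genes.

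In the test of Slit2th against Slit2fl/fl, 0 of the 26 tested members and 0 of all 12152 tested genes (0%) had an adjusted p under 0.05 by edgeR's quasi-likelihood test. The smallest adjusted p among the members was 0.423. DESeq2 called 34 genes, 0 of them members. At an unadjusted p under 0.05 the test picked 4 of the 26 members (15.4%), beside 10.8% of all tested genes. Of these, Sema3e and Sema6a were higher in Slit2th (3.98% of all tested genes) and Plxna1 and Plxnb1 were lower (6.78%). Without Slit2fl/fl replicate 1 the count was 1 member, Plxna1, but the share of all tested genes was not computed for that fit. Without a filter on low counts it was 7 of 31 members (22.6%), beside 10.6% of all genes then fitted. Those 7 were Sema3e, Plxna1, Plxnb1, Nrp1 and the sparsely counted Sema4a, Sema6b and Plxnc1. The libraries of the genotypes did not overlap for 8 of the 26 members (30.8%), beside 18.4% of all tested genes, with Sema3e, Sema6a and Plxna2 higher in Slit2th (8.72% of all tested genes) and Plxna1, Plxnb1, Plxnb3, Plxnd1 and Sema4g lower (9.73%). For such a gene a two-sided exact permutation test gives p = 0.10, which is the smallest value that 3 libraries against 3 allow. Over the tested members 12 log2 fold changes were positive and 14 negative, with a median of -0.19 beside -0.05 over all tested genes.

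**Figure D2:**
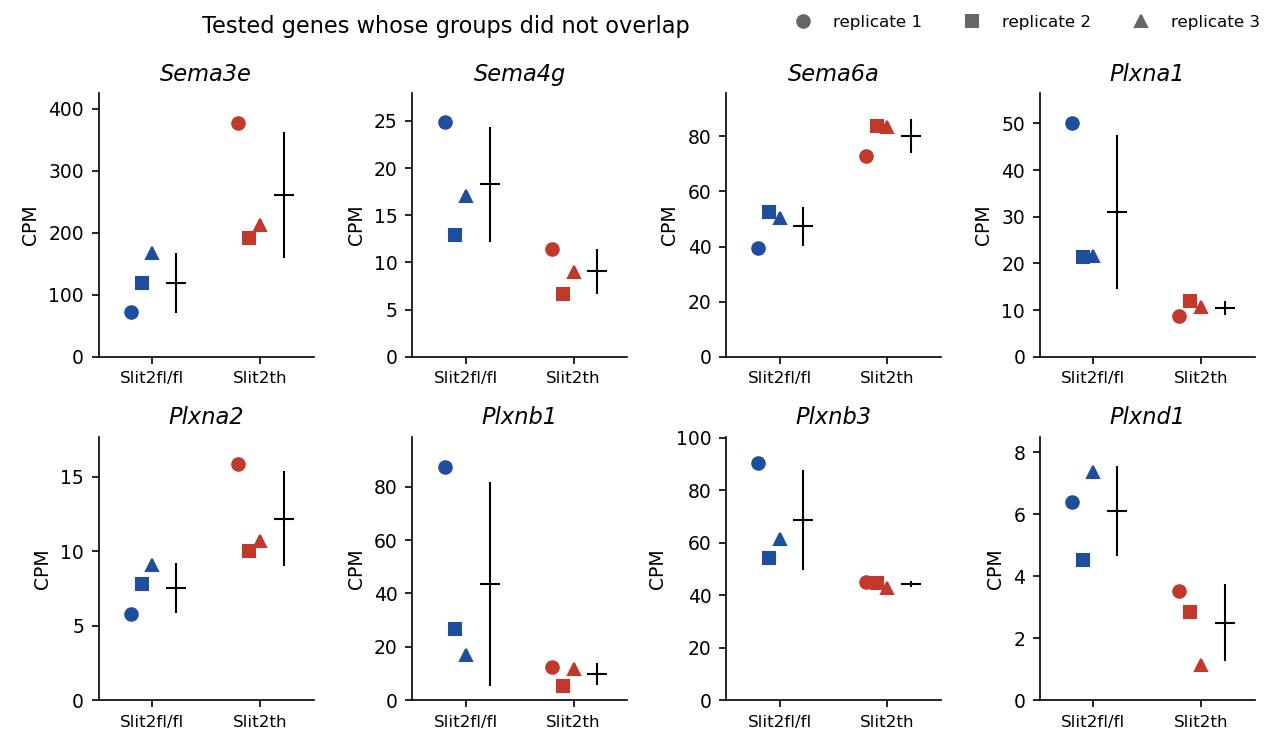
TMM-normalised CPM of the 8 tested genes whose libraries did not overlap between the genotypes, 1 point per library with the mean and SD of each group beside it. Sema6a has a wide gap and little spread within groups, while Plxnb1 and Plxna1 have 1 high Slit2fl/fl library, replicate 1.

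Among the class 3 ligands, Sema3e (chr5:14025276-14256689, plus strand) had 71.3, 118 and 168 CPM in the Slit2fl/fl libraries and 378, 191 and 213 CPM in the Slit2th libraries. Every Slit2th library lay above every Slit2fl/fl library, and Slit2th replicate 1 lay far above the rest. Group means (± SD, n = 3) were 119 ± 48.3 CPM for Slit2fl/fl and 261 ± 102 CPM for Slit2th, with a log2 fold change of 1.13 (SE 0.43, 95% interval 0.15 to 2.11, edgeR unadjusted p = 0.0283, adjusted p = 0.431). Without replicate 1 of both groups the log2 fold change was 0.48. The other class 3 genes overlapped between the genotypes. Sema3a, the classical repellent of sympathetic axons that acts through Nrp1, had 12.8 to 26.5 CPM in Slit2fl/fl against 26.4 to 34.3 CPM in Slit2th (log2 fold change 0.48, SE 0.42). Sema3b reached 149 CPM in Slit2fl/fl replicate 1 and 261 CPM in Slit2th replicate 1 but stayed between 36.9 and 52.9 CPM in the other 4 libraries. Its log2 fold change of 0.59 (SE 0.75) became -0.68 without Slit2th replicate 1. Sema3c ranged from 28.8 to 121 CPM and from 70.4 to 173 CPM (log2 fold change 0.40, SE 0.56), and this turned to -0.49 without replicate 1 of both groups. Sema3g (0.21, SE 0.52) and Sema3d (-0.46, SE 1.15) were under 7 CPM in every library. In all, 5 of the 6 tested class 3 genes had a positive log2 fold change, with a median of 0.44. The median was 0.21 without replicate 1 of both groups. These genes had a median GC content of 42.3%, and all tested genes at 42 to 44% GC had a median of 0.29. Of all tested genes under 50% GC, 39.6% were negative. With offsets corrected for GC content the class 3 median was 0.49, and 1 of the 6 genes was negative.

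Of the 5 tested class 4 genes 4 had a negative log2 fold change (median -0.32), but with offsets corrected for GC content 2 of 5 did (median 0.04). Sema4g (chr19:44989101-45003397, plus strand), a ligand of Plxnb2, had 24.9, 12.9 and 17.0 CPM in Slit2fl/fl against 11.4, 6.67 and 9.01 CPM in Slit2th. The groups did not overlap, although the lowest Slit2fl/fl and the highest Slit2th library were close. Group means (± SD, n = 3) were 18.3 ± 6.10 CPM for Slit2fl/fl and 9.04 ± 2.39 CPM for Slit2th, with a log2 fold change of -1.04 (SE 0.46, edgeR unadjusted p = 0.0509, adjusted p = 0.463). Sema4b, the class 4 gene with the highest median per kilobase, had 35.8, 41.4 and 70.4 CPM against 37.8, 44.3 and 49.6 CPM. These values intermixed (log2 fold change -0.16, SE 0.39). Sema4f had 279, 19.4 and 41.4 CPM in Slit2fl/fl against 82.7, 23.3 and 22.5 CPM in Slit2th. Replicate 1 was the highest library of both genotypes, and the log2 fold change of -1.43 (SE 0.93) became 0.47 without Slit2fl/fl replicate 1. Sema4c, a ligand of Plxnb2, was at 3.97 to 13.7 and 8.80 to 13.3 CPM (log2 fold change 0.36, SE 0.55). Sema4d, the ligand of Plxnb1, was at 1.14 to 4.79 and 0.880 to 4.51 CPM (log2 fold change -0.32, SE 0.82).

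Of the class 5 and 6 genes, Sema6a (chr18:47235598-47368870, minus strand), a membrane ligand of Plxna2 and Plxna4, did not overlap between the genotypes. It had 39.3, 52.4 and 50.5 CPM in Slit2fl/fl against 73.1, 83.8 and 83.4 CPM in Slit2th, with little spread within groups. Group means (± SD, n = 3) were 47.4 ± 7.07 CPM for Slit2fl/fl and 80.1 ± 6.09 CPM for Slit2th, with a log2 fold change of 0.76 (SE 0.33, 95% interval 0.02 to 1.50, edgeR unadjusted p = 0.0451, adjusted p = 0.461). Leaving out any library kept it between 0.60 and 0.88. Sema5a, a ligand of Plxnb3, had 44.4, 85.4 and 132 CPM against 94.2, 136 and 89.0 CPM, and the groups overlapped (log2 fold change 0.29, SE 0.44). Sema6d, a ligand of Plxna1, had 49.5 to 102 CPM in Slit2fl/fl against 51.9 to 63.3 CPM in Slit2th (log2 fold change -0.22, SE 0.39). Sema6c was under 4 CPM in every library (log2 fold change 0.77, SE 0.76). Sema7a, the anchored ligand of integrins and Plxnc1, had 19.8, 4.53 and 1.70 CPM against 3.52, 4.29 and 2.25 CPM. Only Slit2fl/fl replicate 1 stood out, and the log2 fold change of -1.41 (SE 0.86) was 0.09 without it.

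Most plexins had lower values in Slit2th. Of the 8 tested plexins 6 had a negative log2 fold change, with a median of -0.96, beside 52.2% of all tested genes with a negative value. The tested plexins were GC-rich, with a median GC content of 56.5%. Among all tested genes at 55% GC or more, 72.4% were negative (median -0.56), and the count of negative plexins was near that share. Plxna2 (49.75% GC) and Plxna4 (51.56% GC, negative) lie under that range, however. With GC-corrected offsets 6 of the 8 plexins were negative, and the median over all tested genes was 0.02. The 3 tested B-type plexins were negative with a median of -1.28. Without replicate 1 of both groups the medians were -0.30 for the plexins and -0.41 for the B-type plexins, and with GC-corrected offsets they were -0.43 and -0.54. Plxnb1 (chr9:109095389-109119917, plus strand), the receptor of Sema4d, had 87.3, 26.5 and 17.0 CPM in Slit2fl/fl against 12.3, 5.24 and 11.8 CPM in Slit2th. Slit2fl/fl replicate 1 was by far the highest, and the groups did not overlap. Group means (± SD, n = 3) were 43.6 ± 38.1 CPM for Slit2fl/fl and 9.80 ± 3.96 CPM for Slit2th, with a log2 fold change of -2.18 (SE 0.67, 95% interval -3.70 to -0.66, edgeR unadjusted p = 0.0101, adjusted p = 0.423). Without Slit2fl/fl replicate 1 it was -1.19 (unadjusted p = 0.0512). Plxnb2, the receptor of Sema4c and Sema4g, had 25.3 CPM in Slit2fl/fl replicate 1 and 3.40 to 7.12 CPM in the other 5 libraries. Its log2 fold change of -1.28 (SE 0.74) became 0.10 without replicate 1 of both groups. Plxnb3 (chrX:73757090-73772514, plus strand), the receptor of Sema5a and the plexin with the highest level per kilobase, had 90.5, 54.3 and 61.3 CPM in Slit2fl/fl against 44.9, 44.8 and 42.8 CPM in Slit2th. The Slit2th libraries were nearly equal and lay under every Slit2fl/fl library. The log2 fold change was -0.64 (SE 0.35, edgeR adjusted p = 0.512). It was -0.43 without Slit2fl/fl replicate 1 and -0.22 with GC-corrected offsets.

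Plxna1 (chr6:89316314-89362620, minus strand), a partner of neuropilins and a receptor of Sema6d, had 50.2, 21.4 and 21.6 CPM in Slit2fl/fl against 8.80, 11.9 and 10.7 CPM in Slit2th. The highest Slit2th library lay well below the lowest Slit2fl/fl library. Group means (± SD, n = 3) were 31.0 ± 16.6 CPM for Slit2fl/fl and 10.5 ± 1.57 CPM for Slit2th, with a log2 fold change of -1.56 (SE 0.48, 95% interval -2.65 to -0.48, edgeR unadjusted p = 0.00961, adjusted p = 0.423). Without Slit2fl/fl replicate 1 it was -1.06 (unadjusted p = 0.0179), and across all libraries left out it ranged from -1.77 to -0.93. The exons of Plxna1 overlap those of an antisense gene by 970 bases, and since the strand setting of the counting is not given in the sources used here, reads of the pair cannot be told apart. Plxna4, a partner of Nrp1 for Sema3a and a receptor of Sema6a, had 66.5, 40.1 and 47.7 CPM against 31.7, 44.8 and 32.7 CPM. The groups overlapped (log2 fold change -0.50, SE 0.37). Plxna2 (chr1:194618218-194816869, plus strand), also a receptor of Sema6a, differed in the other direction, with 5.75, 7.76 and 9.08 CPM in Slit2fl/fl against 15.8, 10 and 10.7 CPM in Slit2th. The groups were separate by a small gap (log2 fold change 0.69, SE 0.47, edgeR adjusted p = 0.569). Plxna3 had 5, 0 and 2 counts against 0, 2 and 7 counts, too few to compare (log2 fold change 0.75, SE 1.17). Plxnd1 (chr6:115954811-115995005, minus strand), the receptor of Sema3e, had 6.39, 4.53 and 7.38 CPM in Slit2fl/fl against 3.52, 2.86 and 1.13 CPM in Slit2th, from 20, 7 and 13 against 4, 6 and 2 counts. The groups did not overlap at these low counts (log2 fold change -1.30, SE 0.65, edgeR unadjusted p = 0.0739, adjusted p = 0.487).

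The neuropilins differed from each other in direction. Nrp1 (chr8:128358604-128503363, plus strand), which binds Sema3a and also vascular endothelial growth factor, had 24.3, 49.8 and 23.8 CPM in Slit2fl/fl against 133, 43.8 and 46.8 CPM in Slit2th. Slit2th replicate 1 was far above the other libraries, and the groups overlapped. The log2 fold change of 1.19 (SE 0.54, edgeR unadjusted p = 0.0555, adjusted p = 0.471) was 0.48 without that library, which also held the highest macrophage marker sum, 628 CPM. The markers did not move together there, with 323 counts of Lyz2, 206 of Aif1 and 84 of C1qa. Csf1r and Cd163 had 0 counts in that library and C1qc had 2. The part of macrophages in the Nrp1 value was not tested. Nrp2 (chr1:62703285-62818695, plus strand), the preferred receptor of Sema3f, had 138, 99.0 and 128 CPM against 92.4, 103 and 94.6 CPM. These groups overlapped as well (log2 fold change -0.33, SE 0.32, edgeR adjusted p = 0.674).

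**Figure D3:**
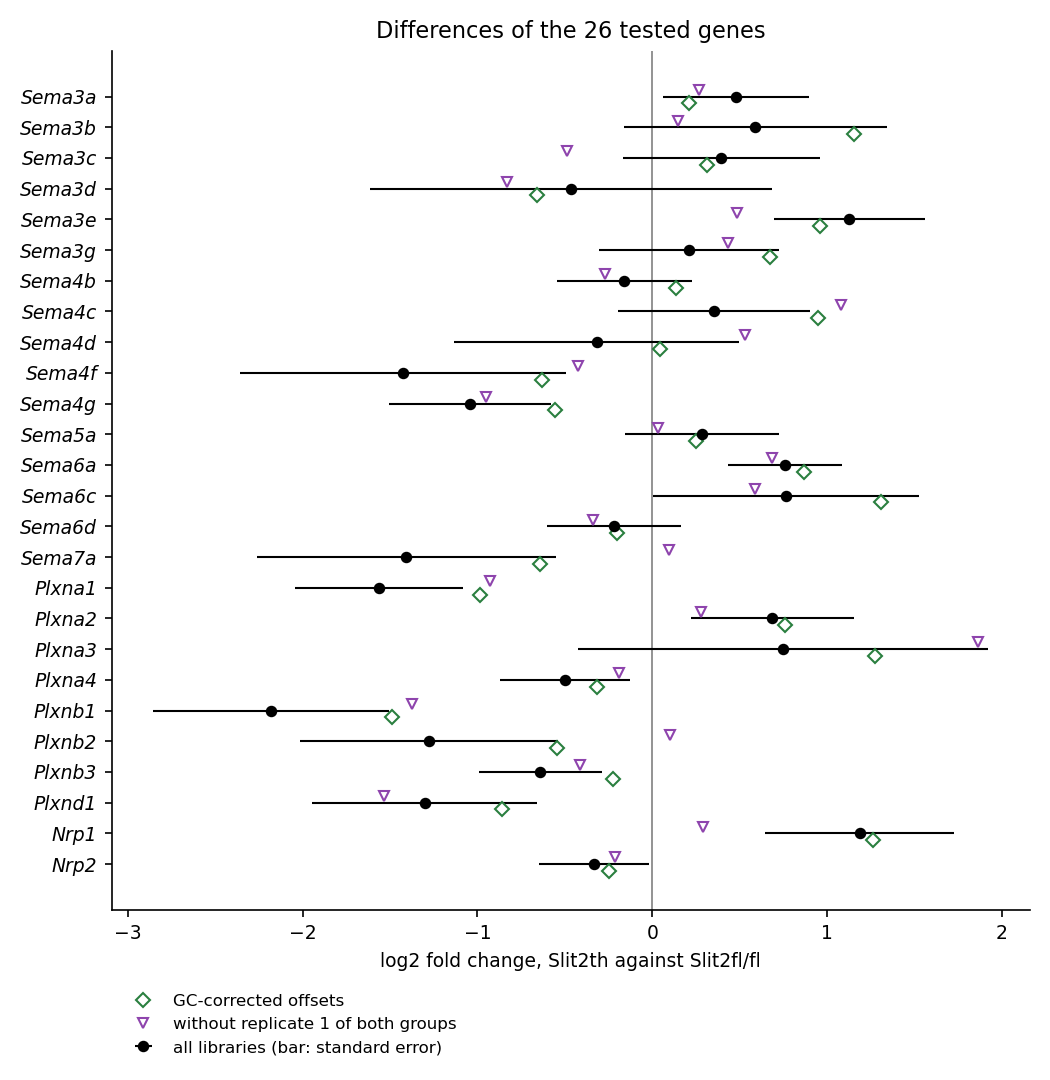
Log2 fold change of Slit2th against Slit2fl/fl for the 26 tested genes (filled circles with a bar of 1 standard error), with the value without replicate 1 of both groups (triangles) and with GC-corrected offsets (diamonds). Plxnb1 has the lowest value, -2.18, and moves to -1.38 and -1.49 under these alternatives, while Sema6a stays near 0.76.

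Summed by class in CPM per kilobase, the plexins came to 38.0, 18.3 and 19.1 in Slit2fl/fl against 13.3, 14.3 and 13.6 in Slit2th. The groups did not overlap. Slit2fl/fl replicate 1 had by far the highest sum, and leaving it out could not have made them overlap. The sums were not corrected for GC content. B-type plexins accounted for most of this level, with 26.3, 12.1 and 11.7 against 8.65, 8.24 and 8.48. Class 3 semaphorins summed to 45.4, 39.0 and 49.2 against 123, 48.6 and 46.4, where the single high value was Slit2th replicate 1. Class 4 semaphorins summed to 65.7, 14.7 and 23.9 against 25.7, 16.2 and 16.9, where it was Slit2fl/fl replicate 1. Both class sums overlapped between the genotypes. The ratio of Nrp2 to Nrp1 per kilobase was 4.71, 1.64 and 4.43 in Slit2fl/fl against 0.575, 1.94 and 1.67 in Slit2th, and it overlapped too.

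**Figure D4:**
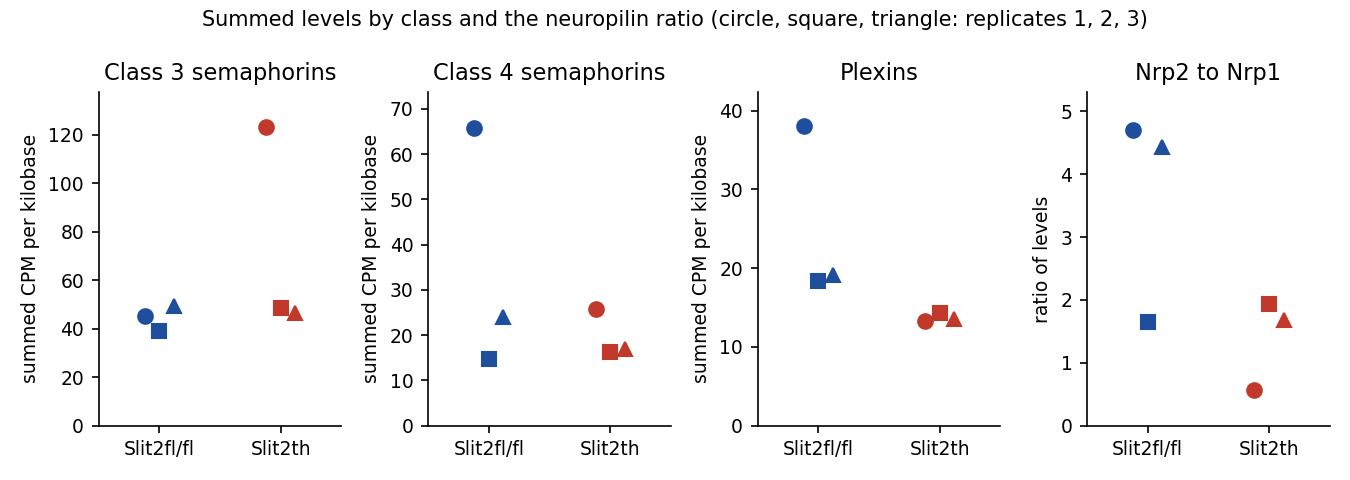
Summed level in CPM per kilobase of exon of the class 3 semaphorins, class 4 semaphorins and plexins, and the ratio of Nrp2 to Nrp1, with 1 point per library. The plexin sum is 18.3 or more in the Slit2fl/fl libraries and 14.3 or less in the Slit2th libraries, and the other panels overlap.

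Levels of 4 pairs of members, picked after their values were seen, are given as ratios per kilobase. Sema3e exceeded Plxnd1 by 8.77, 20.6 and 17.9 times in Slit2fl/fl and by 84.3, 52.6 and 149 times in Slit2th, the latter resting on 4, 6 and 2 Plxnd1 counts. Sema6a against Plxna4 gave 0.950, 2.10 and 1.70 in Slit2fl/fl against 3.70, 3.01 and 4.10 in Slit2th. Their separation follows from the separate values of Sema3e, Plxnd1 and Sema6a given above. The ratio of Sema5a to Plxnb3 was 0.171, 0.546 and 0.750 against 0.729, 1.05 and 0.722, and the ratio of Sema4f to Sema4b was 8.33, 0.5002 and 0.628 against 2.33, 0.562 and 0.485. Both overlapped between the genotypes.

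The members' values moved with base composition, as did those of all genes. Among the 14 tested members with a transcript GC content of 55% or more, 9 had a negative log2 fold change (median -0.84). In that range 72.4% of 2686 tested genes were negative (median -0.56). Among the 8 members under 50%, 5 were positive (median 0.34), and 39.6% of the 6378 tested genes there were negative (median 0.17). Of the GC-rich members the 5 with positive values were Sema3b, Sema3g, Sema4c, Sema6c and Plxna3. Plxna1 and Plxnb1 lie at 57.3% and 57.6% GC, and Sema3e lies at 42.0%. Across genes, which share the same libraries, the Spearman correlation of log2 fold change with GC content was -0.34 over 12146 genes and -0.41 over the 26 members. Offsets fitted to GC content in each library brought these to -0.02 and -0.21. With those offsets the log2 fold change was -0.99 for Plxna1 (unadjusted p = 0.0202), -1.49 for Plxnb1, 0.96 for Sema3e (unadjusted p = 0.0383) and 0.87 for Sema6a. The median of the tested plexins was -0.43, with 6 of 8 negative, and that of all tested members was 0.09. This correction picked 5 of 26 members at an unadjusted p under 0.05 (19.2%), beside 11% of all tested genes, and 0 of either at an adjusted p under 0.05 by edgeR. Without replicate 1 of both groups edgeR gave 396 genes (3.26%) and 0 members an adjusted p under 0.05, and 4 members (15.4%) an unadjusted one, beside 17.3% of all tested genes.

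**Figure D5:**
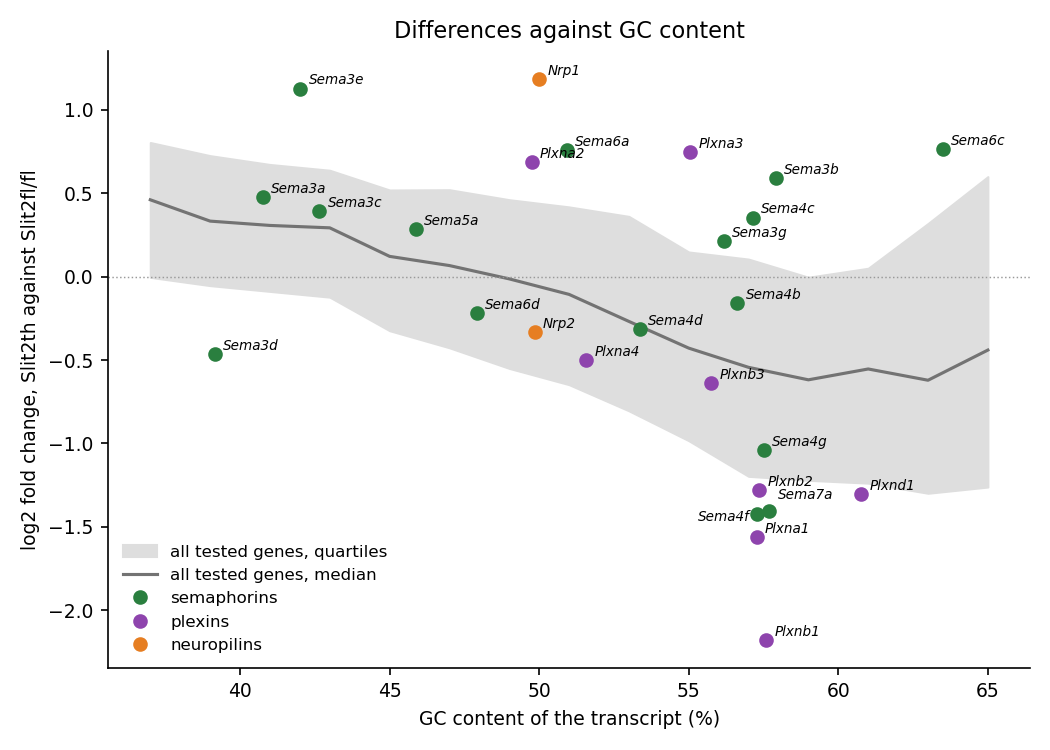
Log2 fold change of Slit2th against Slit2fl/fl plotted against GC content for the 26 tested genes, over the median and quartiles of all tested genes in bins of GC content. The median falls from positive values under 45% GC to negative values over 55%, while the quartiles span 0 in most bins, and Plxnb1, Plxna1, Sema3e and Nrp1 are among the members outside it.

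The wider pathway was taken from lists of 61 co-receptors, other neuropilin ligands, cytoplasmic effectors and processing proteases, of which 48 were tested. Their log2 fold changes were positive in 22 and negative in 26 (median -0.02), with 0 at an adjusted p under 0.05 and 2 higher and 2 lower at an unadjusted one by edgeR, beside 3.98% and 6.78% of all tested genes. These 4 of 48 stand beside 10.8% in both directions together, and the genes are named by that threshold only. Among 11 tested co-receptors and partners, 6 were positive and 5 negative. Itga1, the integrin alpha 1 subunit, had 29, 13 and 23 counts in Slit2fl/fl against 20, 45 and 48 in Slit2th, with a log2 fold change of 1.11 (edgeR unadjusted p = 0.0269). After scaling for depth its groups did not overlap. Met, a receptor tyrosine kinase that pairs with B-type plexins, was the most abundant of this list at 121 CPM per kilobase (log2 fold change 0.50, SE 0.36). Of the 3 tested other neuropilin ligands 2 were positive, and the most abundant was Vegfb (log2 fold change 0.73, SE 0.65).

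Among 30 tested effectors 13 were positive and 17 negative. Rhoa, the GTPase through which plexins of the B type collapse the cytoskeleton, had 467, 143 and 209 counts against 97, 119 and 117, or 120 ± 28.4 and 69.3 ± 14.7 CPM (± SD, n = 3). Its groups did not overlap after scaling (log2 fold change -0.80, edgeR unadjusted p = 0.0489, adjusted p = 0.462). Crmp1, a collapsin response mediator that relays Sema3a signals, had 11, 3 and 3 against 1, 0 and 1 counts (log2 fold change -2.39, unadjusted p = 0.0435 by edgeR). Dpysl4, of the same family, had 17, 1 and 2 against 80, 3 and 7 counts. Its log2 fold change of 3.17 (edgeR unadjusted p = 0.0422) was 0.02 without Slit2th replicate 1. Cofilin (Cfl1), which severs actin filaments, was the most abundant effector at 247 CPM per kilobase (log2 fold change -0.37, SE 0.39). Of the 4 tested proteases 1 was positive and 3 negative, and Adam10, the most abundant at 191 CPM per kilobase, had a log2 fold change of -0.02 (SE 0.37).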

How the data were processed

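RNA-Seq libraries (Illumina TruSeq) were made from 3 Slit2fl/fl and 3 Slit2th cultures. The authors aligned the reads with HISAT2 to mm10 according to the methods, whereas the submitters' processing notes name GRCm39. The counting program, strand setting and annotation release are not given in the sources used here. The authors deposited raw read counts of 20173 genes as whole numbers and tested them with edgeR, excluding genes under 1 CPM.

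Here, the 12152 genes that reached 1 CPM in 3 or more libraries were TMM-normalised and tested with the quasi-likelihood test of edgeR 4.0.16 in R 4.3.3, without covariates and with Benjamini-Hochberg adjustment. The standard error is the log2 fold change divided by the square root of F. CPM per kilobase used merged exon length in GENCODE M21 (GRCm38), in which 20166 of the 20173 gene IDs were found; all positions are from this release. The GC content of a gene is that of its transcript with the longest coding sequence in the same release. Total counts were 1255939 to 3155406 per library, and the floor of 3 counts covers counting error only. The biological coefficient of variation was 50.4%.

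All 31 members are named. Values of every library are given where an unadjusted p was under 0.05, where the groups did not overlap and for leading genes of a class. At most 4 pathway genes per direction with an unadjusted p under 0.05 are named, with the most abundant gene of each list. Nrp1 and Sema4f are given by library after their values were seen. Members, lists and tests were chosen with earlier results of these data known. Alternatives were DESeq2 1.42.0, limma 3.58.1 (voom), other scalings and filters, a replicate block and left-out libraries. Offsets corrected for GC content or length (loess span 0.4) were added after seeing the data.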

Additional observations from a re-analysis of the deposited data

How the results depend on the processing

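The 26 tested members were refitted under 16 alternatives, although the filter of 1 CPM in every library kept only 22 of them. In each alternative that fitted them, 15 members kept the sign of their log2 fold change, Plxna1, Plxnb1, Sema3e and Sema6a included. Of the 11 others, 7 changed sign only when libraries were left out; the causes were not tested. Without a filter on low counts 7 genes of 17358 passed the adjusted threshold. In that fit 7 of 31 members passed the unadjusted one, beside 10.6% of all genes fitted. DESeq2 passed 34 genes at the adjusted threshold. Over the left-out libraries the genes passing the adjusted threshold ran from 0 to 396 (1 without Slit2fl/fl replicate 1, 396 without replicate 1 of both groups), and members at an unadjusted p under 0.05 from 1 to 5, the 1 being Plxna1 without Slit2fl/fl replicate 1. The share of all tested genes at an unadjusted p was computed only without replicate 1 of both groups (17.3%), so the other counts have no such share beside them. No member passed the adjusted threshold in any alternative run. DESeq2 gave no adjusted p for Plxna3, Plxnb2, Plxnd1, Sema3d, Sema3g, Sema4d, Sema6c and Sema7a, so they could not pass there. The sign turned for Sema3d with limma-voom (1.015), for Sema4b (0.14) and Sema4d (0.043) with GC-corrected offsets and for Sema5a with length-corrected offsets (-0.006). With single libraries left out the log2 fold changes ran from -0.73 to 1.38 for Plxna3, -1.70 to -0.098 for Plxnb2, -0.68 to 1.445 for Sema3b, -0.059 to 0.74 for Sema3c, -1.16 to 0.48 for Sema3d, -0.39 to 0.19 for Sema4b, -1.06 to 0.18 for Sema4d, -2.31 to 0.47 for Sema4f, -0.078 to 0.72 for Sema5a, -0.46 to 0.17 for Sema6d and -1.87 to 0.088 for Sema7a. Without replicate 1 of both groups Plxnb2 (0.10), Sema3c (-0.49), Sema4d (0.53) and Sema7a (0.095) turned.

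Same-numbered libraries of the groups had deviations correlated at 0.260, 0.206 and 0.0618, so the numbers were not taken as a pairing, and not every library correlated best with its own number. With the replicate number as a block, 5 members had an unadjusted p under 0.05 (Sema4g in addition) beside 13.3% of all tested genes, and 0 members and 0 genes an adjusted one by edgeR. The precision was limited by 3 libraries per group and low counts, with standard errors from 0.32 (Nrp2) to 1.17 (Plxna3) on the log2 scale.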
